A study of Rhinolophus ferrumequinum with 8 samples.

Results

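Genes that direct or mark dendritic cells were followed in the spleen of the greater horseshoe bat through summer activity, torpor, arousal and winter activity. The set held 9 genes, chosen by name as regulators and markers of conventional and plasmacytoid dendritic cells: SPI1, IRF8, TCF4, ID2, BATF3, ZBTB46, FLT3, XCR1 and CLEC9A. They were chosen with earlier results of these data known. All 9 were among the 19652 genes of the expression table, and all 9 reached the 8-library mean of 1 that was required for testing, as did 13542 genes in all. RNA was sequenced from the entire spleen of wild females in 8 libraries, 2 per state. Summer active bats were taken in July and all other bats in November: in torpor, in arousal after 2 h of captivity, or winter active after 26 h of captivity. No genotype, treatment or age is given for any group. The labels call the libraries of a state biological replicates without saying how many animals stand behind each, so p-values measure the spread between these libraries.

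Dendritic cells take up antigen and show it to T cells, and the spleen filters blood past them. Conventional type 1 cells carry the chemokine receptor XCR1 and the dead-cell receptor CLEC9A and depend on IRF8, BATF3 and ID2, while plasmacytoid cells, which make type I interferon, depend on TCF4. The cytokine receptor FLT3 supports both lines, and ZBTB46 marks the conventional one. Several of these genes are shared with other spleen cells: SPI1 and IRF8 also act in macrophages and B cells, and ID2 in natural killer and innate lymphoid cells.

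Levels are the deposited rescaled TPM, a per-length measure that allows genes to be set side by side, and the read depth behind them is unknown. The regulators SPI1, ID2, IRF8 and BATF3 were abundant, with means over the 8 libraries of 168.5, 159.8, 123.2 and 103.4. TCF4 averaged 23.8 and FLT3 10.1. The markers of the conventional line were scarce, with ZBTB46 at 5.49, XCR1 at 3.74 and CLEC9A at 1.39. CLEC9A therefore lay close to the level required for testing, and it exceeded 1 in 6 of 8 libraries. Both marker receptors were read in every library and neither was listed at 0. Levels in whole tissue cannot tell fewer cells of a type from less RNA per cell.

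**Figure D1:**
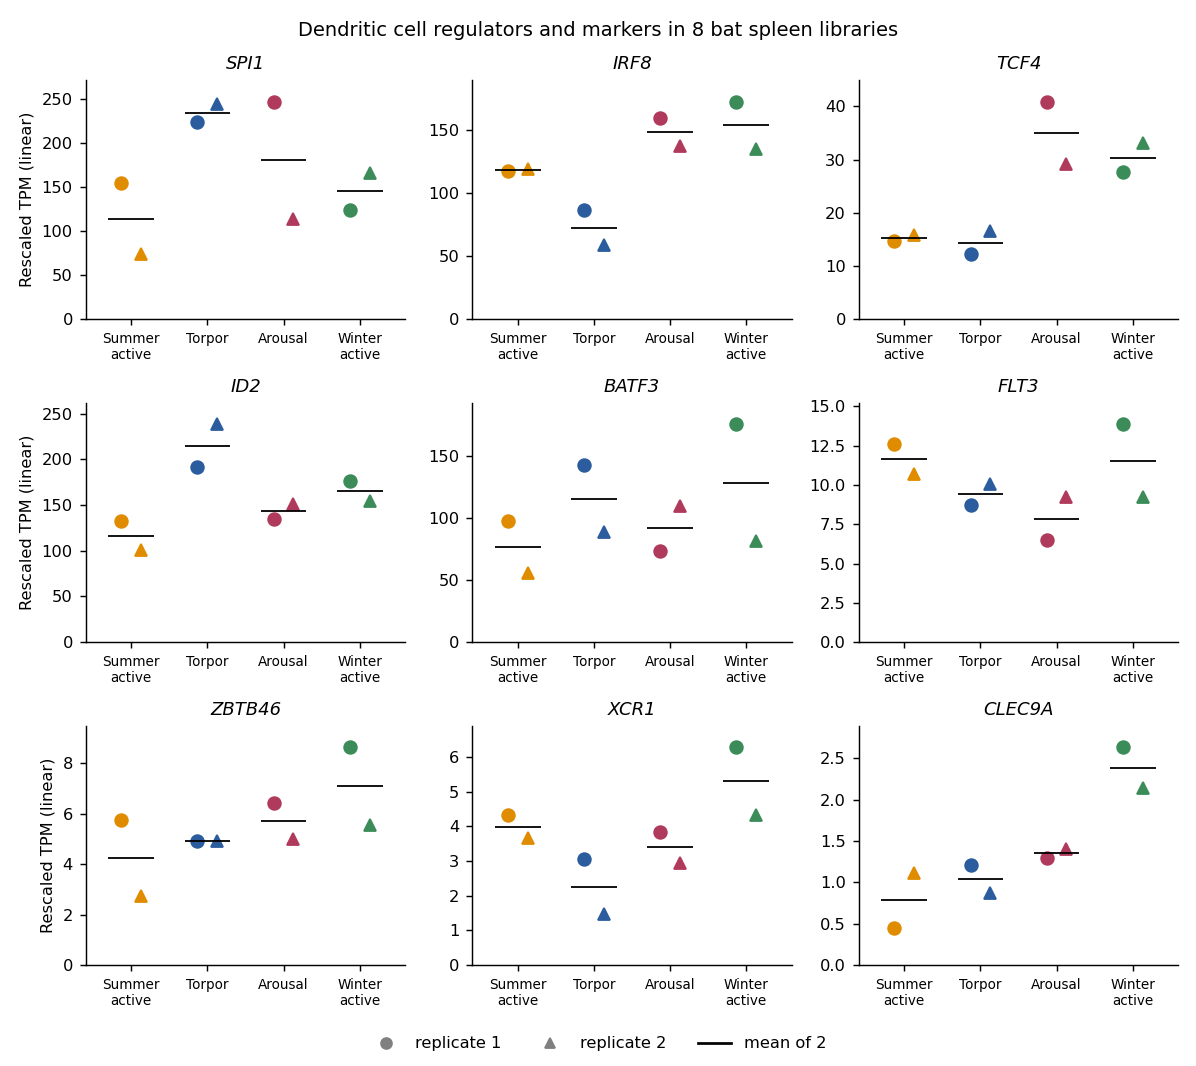
Rescaled TPM on a linear scale for each of the 9 genes, with circles for replicate 1, triangles for replicate 2 and a line at the mean of the 2 libraries of each state. IRF8 was lowest in both torpor libraries, ID2 was highest there, and TCF4 stood at 27.6 to 40.9 in the arousal and winter active libraries against 12.3 to 16.5 in the other 4.

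The regulators came first. IRF8 (NCBI gene 117035011), an interferon regulatory factor required for type 1 and plasmacytoid cells, read 118 and 119 in summer active, 86.2 and 58.5 in torpor, 160 and 138 in arousal, and 172 and 135 in winter active. Both torpor libraries lay below the other 6, a pattern found in 8.48% of all genes tested. All 4 arousal and winter active libraries lay above the 4 from summer and torpor, as in 9.85% of all genes. Arousal exceeded torpor by a log2(value + 1) difference of 1.05 (SE 0.24, adjusted p = 0.143), and winter active exceeded torpor by 1.09 (SE 0.24, adjusted p = 0.271). Torpor lay below summer active by a difference of -0.73 (SE 0.24, adjusted p = 0.212), which was -0.45 without torpor 2 and -0.34 with each column set to a total of 1000000. None of the 3 passed the threshold, an adjusted p under 0.05 by limma over all genes tested. In order, the state means were 72.4 ± 19.6 in torpor, 118 ± 0.935 in summer active, 149 ± 15.7 in arousal and 154 ± 26.7 in winter active (SD, n = 2). Arousal and winter active overlapped, and the other neighbours in that order did not.

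TCF4 (NCBI gene 117011931), the E protein that specifies plasmacytoid cells, read 14.6 and 15.8 in summer active, 12.3 and 16.5 in torpor, 40.9 and 29.2 in arousal, and 27.6 and 33.0 in winter active. The 4 arousal and winter active libraries stood above the 4 others without overlap, as for IRF8 and CLEC9A (3 of 9 genes, against the 9.85% given above), and summer active and torpor overlapped. Arousal exceeded torpor by 1.22 (SE 0.25, adjusted p = 0.142). Winter active exceeded torpor by 1.03 (SE 0.25, adjusted p = 0.274) and summer active by 0.94 (SE 0.25, adjusted p = 0.161). Its adjusted p for any difference among the 4 states, 0.0943, was the smallest of the set and did not pass. IRF8 and ID2 followed at 0.126 and 0.172 in that test, and the other 6 genes lay between 0.258 and 0.608.

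ID2 (NCBI gene 117033448), an inhibitor that binds E proteins such as TCF4 and keeps them from DNA, read 132 and 100.5 in summer active, 191 and 238 in torpor, 135 and 151 in arousal, and 176 and 154 in winter active. Opposite to IRF8, it was highest in both torpor libraries, a pattern of 5.29% of all genes. Both summer libraries lay below all 6 November libraries, as in 9.37% of all genes. Torpor exceeded summer active by 0.88 (SE 0.21, adjusted p = 0.138), and arousal lay below torpor by a difference of -0.58 (SE 0.21, adjusted p = 0.217). The 4 state means, 116 ± 22.5, 143 ± 11.2, 165 ± 15.6 and 215 ± 33.3 (SD, n = 2) in summer active, arousal, winter active and torpor, were separated at each step by libraries that did not overlap, except that arousal and winter active overlapped with columns set to 1000000. On that scale torpor 1, at 193.6, lay only just above arousal 2, at 193.4. The difference of arousal from torpor was then -0.20.

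The 2 opposed factors were also set against each other within each library. ID2 exceeded TCF4 by 15.5 and 14.4 times in the torpor libraries and by 9.05 and 6.34 times in summer active. The ratio was 3.30 and 5.17 in arousal and 6.38 and 4.67 in winter active. Torpor therefore had the 2 highest ratios of the 8 libraries, while winter active 1 lay just above summer active 2. Patterns over the 8 libraries were picked after the values were seen and carry no test. These ratios are unaffected by scaling between libraries, since both genes are read in the same one, and they carry no test either.

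**Figure D2:**
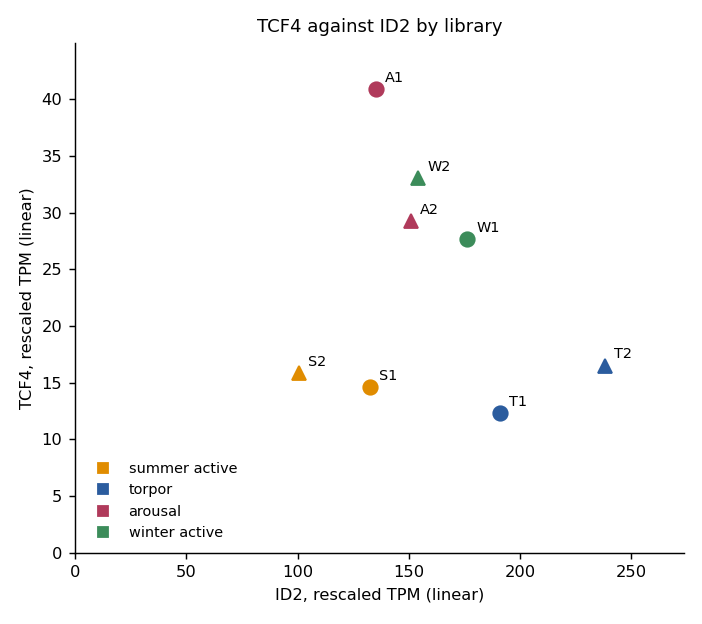
TCF4 against ID2, both in rescaled TPM on linear axes, with 1 point per library (S summer active, T torpor, A arousal, W winter active, followed by the replicate number). Torpor libraries sit at the lower right, with ID2 at 191 and 238 and TCF4 at 12.3 and 16.5, and arousal and winter active libraries sit above 27 on the TCF4 axis.

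SPI1 (NCBI gene 117029996), the ETS factor PU.1 of all myeloid cells and B cells, read 155 and 73.6 in summer active, 224 and 244 in torpor, 247 and 113 in arousal, and 124 and 166 in winter active. Torpor stood above summer active and winter active without overlap, but arousal 1 was higher than either torpor library. Replicates differed by 2.11 times in summer active and 2.18 times in arousal. The difference of torpor from summer active was 1.12 (SE 0.45, adjusted p = 0.285). That difference was 0.59 without summer active 2 and 1.66 without summer active 1.

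BATF3 (NCBI gene 117014341), a partner of IRF8 in type 1 cells, read 98.0 and 56.0 in summer active, 143 and 88.7 in torpor, 73.9 and 110.0 in arousal, and 176 and 81.8 in winter active. All neighbouring states overlapped in its order, and replicates differed by 1.49 to 2.15 times. No comparison of BATF3 had an adjusted p under 0.427. Its level was of another order than that of the type 1 markers it is known to accompany, with 81.8 to 176 in winter active against 4.33 to 6.28 for XCR1.

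ZBTB46 (NCBI gene 117015954), a zinc finger repressor of the conventional line, read 5.74 and 2.75 in summer active, 4.92 and 4.93 in torpor, 6.41 and 4.99 in arousal, and 8.63 and 5.55 in winter active. The winter active mean was the highest, 7.09 ± 2.18, but winter active 2 lay below summer active 1 and arousal 1. Winter active exceeded summer active by 0.66 (95% interval -0.16 to 1.48, adjusted p = 0.419), and by 0.24 without summer active 2 or 1.08 without summer active 1.

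Of the receptors, FLT3 (NCBI gene 117021070) had the smallest spread, 2.13 times between its lowest and highest library. It read 12.6 and 10.7 in summer active, 8.72 and 10.1 in torpor, 6.49 and 9.23 in arousal, and 13.8 and 9.21 in winter active. Torpor lay below summer active without overlap, by a difference of -0.28 (95% interval -0.93 to 0.37, adjusted p = 0.651) that was -0.17 without summer active 1 and turned to 0.077 with columns set to 1000000, and all neighbouring states overlapped. Its ligand FLT3LG, named beside the rule for named genes because it binds FLT3, read 66.9 and 60.9 in summer active, 58.7 and 50.9 in torpor, 37.0 and 32.1 in arousal, and 51.5 and 44.4 in winter active. Both arousal libraries held the lowest values of the 8 on the deposited scale, though not with columns set to 1000000. Arousal lay below torpor by a difference of -0.65 (adjusted p = 0.174), while the difference of the November states from summer was -0.50 (adjusted p = 0.120) and turned to 0.068 with columns set to 1000000.

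XCR1 (NCBI gene 117036626), the receptor for the chemokine XCL1, read 4.32 and 3.67 in summer active, 3.06 and 1.47 in torpor, 3.84 and 2.94 in arousal, and 6.28 and 4.33 in winter active. Both winter active libraries lay above the other 6, by a narrow margin over summer active 1. Winter active exceeded torpor by 0.98 (SE 0.33, adjusted p = 0.321), and torpor lay below summer active by a difference of -0.65 (SE 0.33, adjusted p = 0.388). Without torpor 2 these differences were 0.62 and -0.30, and without torpor 1 they were 1.34 and -1.01.

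CLEC9A (NCBI gene 117029042), which binds actin exposed by dead cells, read 0.452 and 1.11 in summer active, 1.21 and 0.877 in torpor, 1.30 and 1.41 in arousal, and 2.63 and 2.14 in winter active. The winter active mean was 2.39 ± 0.346 and lay above all other libraries, and arousal lay above torpor and summer active. Winter active exceeded summer active by 0.95 (SE 0.31, adjusted p = 0.234), a scale that understates the change of a gene this low.

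Each state comparison was then read across the 9 genes. Torpor against summer active asks how the hibernating spleen differed from the summer spleen. IRF8, XCR1 and FLT3 were lower in both torpor libraries, SPI1 and ID2 were higher in both, and the other 4 genes overlapped. That holds on the deposited scale: with columns set to 1000000, XCR1 and FLT3 overlapped, and TCF4, BATF3, ZBTB46 and CLEC9A were higher in both torpor libraries. None of the 9 passed by limma, where 0.561% of all genes tested did. At an unadjusted p under 0.05 stood 3 of 9 (IRF8, SPI1 and ID2), against 16.0% of all genes. Libraries did not overlap for 5 of 9, against 46.5% of all genes. The median difference was 0.22 over the 9 and -0.055 over all genes.

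The step from torpor to arousal, with 2 h of captivity, came next. IRF8, TCF4, ZBTB46 and CLEC9A were higher in both arousal libraries and ID2 lower, without overlap, although quantile normalization turned the differences of ZBTB46 and CLEC9A to -0.17 and -0.024. XCR1 was also higher in both arousal libraries with columns set to 1000000. No gene passed by limma, in the set or among all genes tested (0.0%). At an unadjusted p under 0.05 stood IRF8, TCF4 and ID2, 3 of 9 against 19.7% of all genes. Non-overlap held for 5 of 9 against 54.1%. The outcome depended on scaling: with each column set to a total of 1000000, which moved the median of all genes from 0.11 to 0.45, IRF8 (difference 1.43) and TCF4 (1.59) passed at an adjusted p of 0.0457, together with 3.24% of all genes.

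Winter active against torpor covers the bats kept for 26 h. IRF8, TCF4, XCR1, ZBTB46 and CLEC9A were higher in both winter active libraries, SPI1 and ID2 were lower, and FLT3 and BATF3 overlapped. None of the 9 passed by limma, nor did any other gene (0.0%). Unadjusted p-values under 0.05 were found for IRF8, TCF4, XCR1 and CLEC9A, 4 of 9 against 13.2% of all genes. On the deposited scale libraries did not overlap for 7 of 9 genes, against 50.9% of all genes. The median difference was 0.42 over the 9 and 0.079 over all genes.

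Winter active against summer active compares active states of different seasons. A time in captivity is given for the winter bats (26 h) and none for the summer bats. Season and captivity therefore cannot be told apart here. IRF8, TCF4, XCR1, CLEC9A and ID2 were higher in both winter libraries and the other 4 genes overlapped on the deposited scale. Those 4, FLT3, ZBTB46, BATF3 and SPI1, were also higher in both winter libraries with columns set to 1000000. None of the 9 passed by limma, where 1.03% of all genes did. TCF4, CLEC9A and ID2 had unadjusted p-values under 0.05, 3 of 9 against 14.8% of all genes, and 5 of 9 did not overlap, against 49.1%. With columns set to 1000000, TCF4 (difference 1.48, adjusted p = 0.0444) and ID2 (1.08, adjusted p = 0.0454) passed with 5.72% of all genes, while the median of all genes moved from 0.046 to 0.55.

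Against summer, the 6 November libraries together separated on the deposited scale for ID2 only, 1 of 9 genes against 19.7% of all genes. TCF4, BATF3, ZBTB46, CLEC9A and SPI1 separated as well with columns set to 1000000. The mean difference of the 3 November states from summer active was 0.57 for ID2 (SE 0.18, adjusted p = 0.122, and 0.37 without summer active 2) and 0.66 for TCF4 (SE 0.20, adjusted p = 0.118). These 2 were the members with an unadjusted p under 0.05, against 23.1% of all genes. None passed by limma, where 2.92% of all genes did, and the test of any difference among the 4 states likewise passed none of the 9, against 0.783%. In that last test 3 of 9, IRF8, TCF4 and ID2, had an unadjusted p under 0.05, against 22.5% of all genes. With columns set to 1000000 the November comparison passed 6 of 9, TCF4, ID2, CLEC9A, SPI1, ZBTB46 and BATF3, together with 34.9% of all genes, and the test of any difference passed 3 of 9 with 21.7%. The comparisons share libraries, so a gene's values in one are not independent of those in another.

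**Figure D3:**
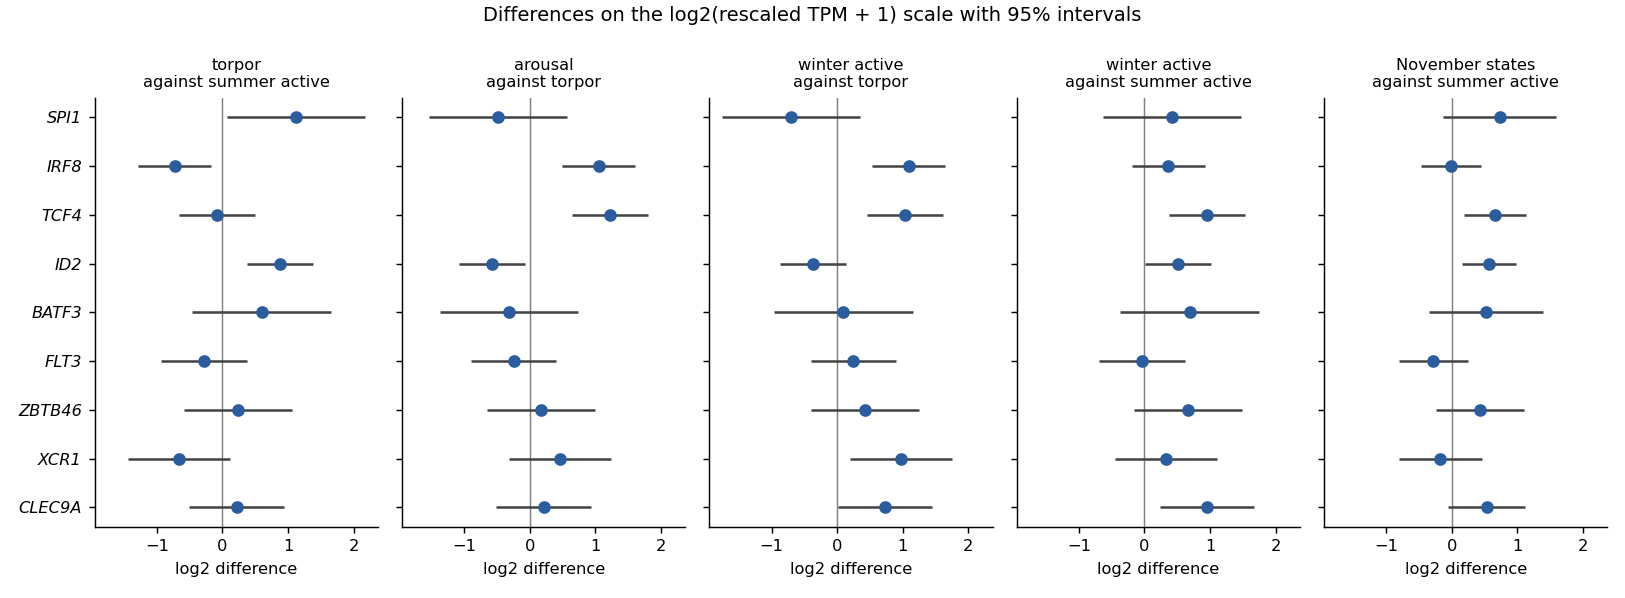
Differences on the log2(rescaled TPM + 1) scale for the 9 genes in the 5 comparisons, points with 95% intervals from the fit over all 8 libraries, positive where the first-named state was higher. Intervals of IRF8 and TCF4 lie above 0 in arousal and winter active against torpor, and that of ID2 lies above 0 in torpor against summer active, before adjustment over all genes.

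Single libraries held many of the extremes. Winter active 1 had the highest value of the 8 libraries for 6 of 9 genes (IRF8, XCR1, FLT3, ZBTB46, BATF3 and CLEC9A), while 7.32% of all genes tested were highest there. Summer active 2 had the lowest value for 4 of 9 (ZBTB46, BATF3, SPI1 and ID2), against 18.4% of all genes. These counts were made after the values were seen and carry no test.

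The libraries differed in other cells as well. Column totals ran from 745098 in arousal 1 to 1331820 in summer active 2, and replicates correlated at r = 0.915 to 0.959 over log2 values of genes tested. Summed macrophage markers (13 of 13 genes read, led by C1QA and C1QB) were 4955 in summer active 2 against 12120 to 21010 in the other 7 libraries, with 20120 and 21010 in torpor. SPI1 and ID2 were lowest in the same library, and SPI1, at 224 and 244 in torpor, was read beside the 2 highest macrophage sums. Summed B-cell markers (12 of 12, led by CD79A and CD79B) were 2846 and 3249 in summer active and 709 to 1525 in November. IRF8 was 135 to 172 in the arousal and winter active libraries, whose B-cell sums were 709 to 1525, and 118 and 119 in summer. The torpor libraries had B-cell sums of 903 and 1149 and the lowest IRF8, at 86.2 and 58.5. Summed markers of natural killer and innate lymphoid cells (11 of 11), a known source of ID2, were 102 and 147 in torpor, 95.4 and 116 in summer active and 57.3 to 93.1 elsewhere. Endothelial and stromal markers (10 of 10, led by LUM and VWF) summed to 204 in summer active 2 and to 361 to 582 elsewhere. ZBTB46 was lowest in the same library, at 2.75. Erythroid markers summed to 6036 and 8961 in summer and to at most 139 in November. Single libraries stood apart in other markers. Neutrophil markers summed to 12420 in torpor 1 and to 715 to 3578 elsewhere, the liver gene ALB read 12260 in arousal 2 and 9.78 to 1077 elsewhere, and the epithelial keratin KRT4 read 1617 in summer active 2 and at most 1.21 elsewhere. The part of these cells in the differences was not tested.

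**Figure D4:**
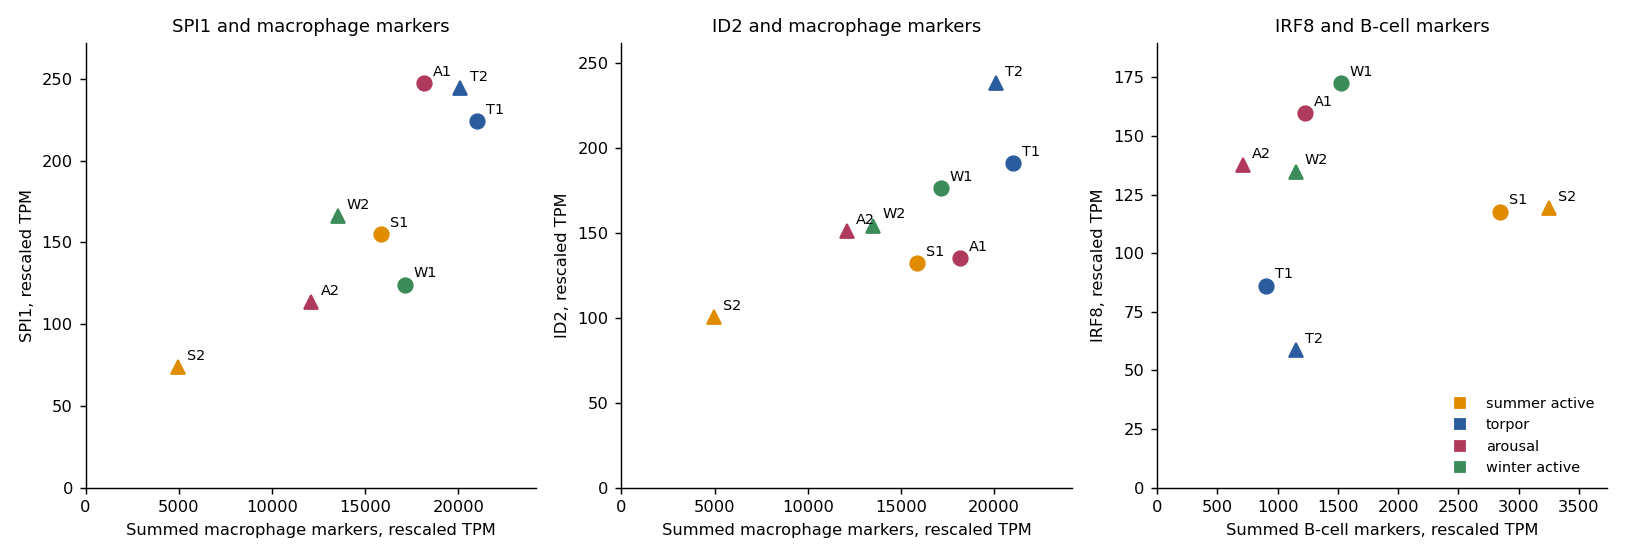
SPI1 and ID2 against summed macrophage markers, and IRF8 against summed B-cell markers, in rescaled TPM on linear axes with 1 point per library (S summer active, T torpor, A arousal, W winter active, with the replicate number). Summer active 2 sits lowest on both axes of the macrophage panels, at a sum of 4955, and the summer libraries sit far right of all others in the B-cell panel.

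The wider dendritic cell pathway was read from 7 lists with 115 genes, of which 92 were tested. No listed gene passed by limma in torpor against summer active, arousal against torpor or winter active against torpor, with 23, 13 and 10 of 92 at an unadjusted p under 0.05 (25.0%, 14.1% and 10.9%, beside 16.0%, 19.7% and 13.2% of all genes). In winter active against summer active 1 fell and none rose, 1.09% of the 92 against 1.03% of all genes tested, with 18 (19.6%) at an unadjusted p under 0.05 against 14.8%. In the November states against summer 5 fell and 1 rose, 6.52% against 2.92%, with 28 (30.4%) at an unadjusted p under 0.05 against 23.1%. The median difference over the 92 genes was 0.12 in the November comparison, beside 0.029 over all genes.

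Among transcription partners (19 tested), the E protein TCF3, also a B-cell factor, fell in November, from 61.8 and 55.0 in summer to 24.7 to 33.5 in the 6 other libraries (difference -0.997, adjusted p = 0.0347). The list as a whole had 14 genes higher and 5 lower in November, with a median of 0.14 against 0.029 over all genes. Against summer, 16 were higher and 3 lower in winter active (median 0.28 against 0.046). In torpor 8 were higher and 11 lower (median -0.083 against -0.055). ID3, an inhibitor of E proteins like ID2, read 115 and 94.0 in summer active, 87.0 and 60.2 in torpor, 88.3 and 121 in arousal and 159 and 159 in winter active, and its difference of winter active from torpor was 1.13 (adjusted p = 0.271). BATF, which can stand in for BATF3, read 80.4 and 44.5 in summer and 60.7 to 230.1 in November (winter active against summer active 1.36, adjusted p = 0.254, and 0.79 without winter active 2).

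Of the plasmacytoid list (14 tested), SPIB, an ETS factor of plasmacytoid and B cells, fell in November, from 90.1 and 105 to 32.4 to 48.8 (difference -1.24, adjusted p = 0.0245). ZEB2, a repressor that favours plasmacytoid and type 2 cells over type 1 cells, read 24.0 and 13.2 in summer active, 14.2 and 11.8 in torpor, 68.5 and 35.2 in arousal, and 31.3 and 32.8 in winter active. Like TCF4 it was higher in all 4 arousal and winter active libraries, with a difference of 1.84 between arousal and torpor (adjusted p = 0.142). PACSIN1, a plasmacytoid marker, read 1.81 and 3.48 in torpor against 6.74 and 7.91 in winter active (difference 1.23, adjusted p = 0.274). BCL11A, a factor needed by plasmacytoid and B cells, read 11.1 and 19.0 in summer active and 3.84 and 4.28 in torpor (difference -1.62, adjusted p = 0.0882). PTCRA, a scarce transcript, went the other way, at 3.51 and 1.39 in torpor and 0.737 and 0.188 in arousal (difference -1.19, adjusted p = 0.190). In torpor against summer active 8 of the 14 were higher and 6 lower, with a median of 0.36 against -0.055 over all genes. Before adjustment, 6 of the higher and 3 of the lower stood under 0.05, beside 16.0% of all genes. In November against summer 8 were also higher and 6 lower, with a median of 0.26 against 0.029. In arousal against torpor 7 were higher and 7 lower, with a median of -0.050 against 0.11 over all genes. In winter active against torpor 6 were higher and 8 lower, with a median of -0.053 against 0.079. CLEC4C, LILRA4 and TLR9 of this list were absent from the expression data.

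Of the type 1 list (11 tested), GCSAM fell in November, from 29.8 and 83.5 to 2.60 to 7.22 (difference -3.05, adjusted p = 0.0106), and in winter active against summer active (-2.77, adjusted p = 0.0479). SNX22 fell in November from 6.48 and 11.7 to 1.12 to 2.25 (difference -1.89, adjusted p = 0.0151). GCSAM is also known from germinal centre B cells, and summed B-cell markers were likewise higher in both summer libraries. Summed proliferation markers (6 of 6) were 282 and 487.5 in summer and 47.9 to 113.5 in November, highest in summer active 2, which also held the highest values of GCSAM, SNX22 and MARCKSL1. The part of B cells and of dividing cells in these falls was not tested. The RNA sensor TLR3 and the adaptor CLNK differed by 0.59 and 0.70 between winter active and torpor (adjusted p = 0.348 and 0.448), and CLNK by 0.30 without winter active 1. All 11 listed genes had a positive difference there, where 56.7% of all genes did, with a median of 0.34 against 0.079 over all genes. In torpor against summer active 8 of the 11 had a negative difference, with a median of -0.25 against -0.055. Of the type 2 list (6 tested) none passed, and SIRPA, CLEC10A, CD209, CLEC4A, MGL2 and ITGAX were absent from the expression data. The lipid-presenting CD1E read 11.1 and 23.1 in summer active and 44.1 and 37.8 in winter active (difference 1.29, adjusted p = 0.150, and 0.80 without summer active 1). CLEC12A read 219 and 295 in arousal against 448 and 487 in torpor (difference -0.88, adjusted p = 0.250).

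Of genes of mature and migrating cells (16 tested), MARCKSL1 fell in November, from 54.6 and 150.5 to 12.9 to 37.1 (difference -2.25, adjusted p = 0.0402). The surface marker CD83 differed by 0.77 between winter active and torpor (adjusted p = 0.334), and the median of the list was 0.64 there, against 0.079 over all genes. The list median was -0.46 in torpor against summer active and -0.36 in November against summer (12 of 16 with a negative difference in each), against -0.055 and 0.029 over all genes. Of growth factor signals (11 tested), STAT3, which relays FLT3 signals, rose in November, from 42.9 and 38.8 to 57.0 to 135 (difference 0.98, adjusted p = 0.0277), and its highest values, 135 and 112, were those of arousal. LTB, a lymphotoxin chain, read 20.1 and 12.4 in arousal against 45.9 and 33.5 in torpor (difference -1.26, adjusted p = 0.150). Of genes for antigen capture and presentation (15 tested) none passed in any of the 5 comparisons, and the smallest adjusted p was 0.0625, for RAB43. Before adjustment, 4 of the 15 stood under 0.05 in the November comparison, of which 3 were higher than in summer, beside 23.1% of all genes.

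**Figure D5:**
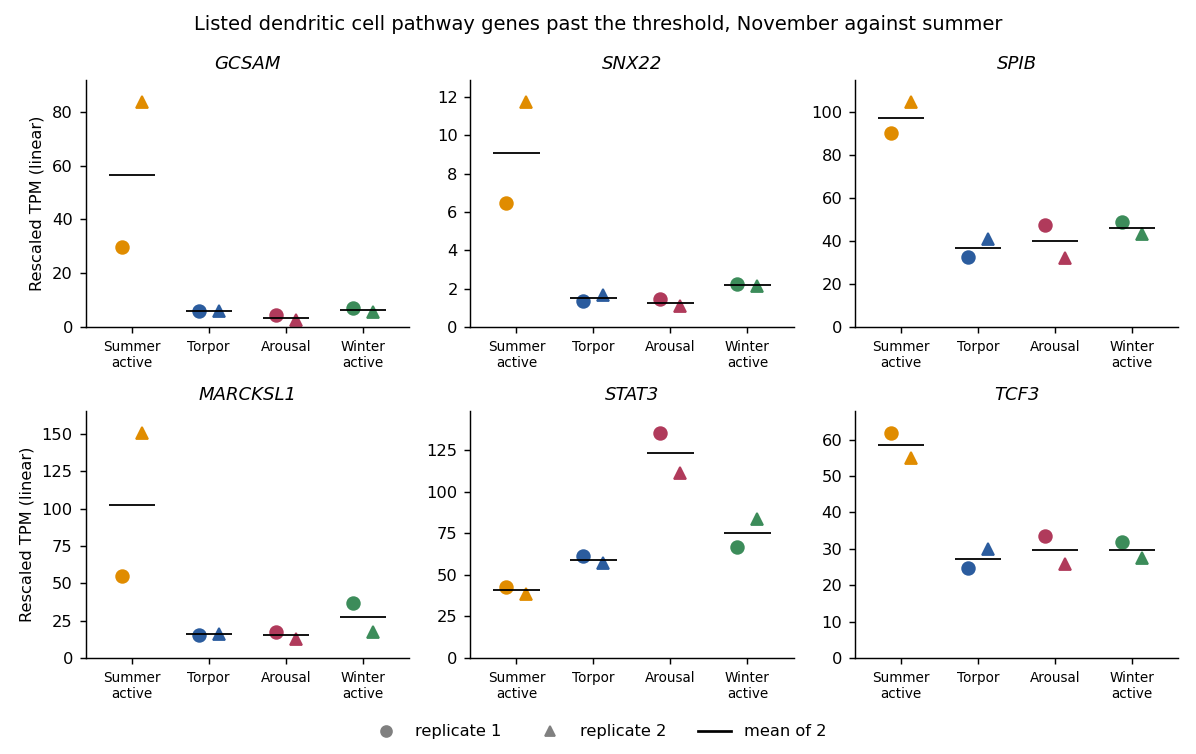
Rescaled TPM on a linear scale for the 6 listed genes that passed in the November states against summer active, with circles for replicate 1, triangles for replicate 2 and a line at each state mean. GCSAM, SNX22, SPIB, MARCKSL1 and TCF3 stood higher in both summer libraries than in all 6 others, and STAT3 stood lower in both.

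None of these 6 calls held without summer active 2 (adjusted p = 0.0614 to 0.227), with differences of -2.32 for GCSAM, -1.50 for SNX22, -1.14 for SPIB, -1.53 for MARCKSL1, -1.08 for TCF3 and 0.91 for STAT3. With no filter on low values SNX22 alone passed, and with columns set to 1000000 TCF3 did not, with a difference of -0.43. GCSAM kept the call without each of the other 7 libraries, and SNX22 lost it only without winter active 2 besides (0.0588). SPIB also lost it without either torpor or either winter active library, and MARCKSL1, STAT3 and TCF3 each lost it without 7 of the 8 in turn. The fall of GCSAM in winter active against summer active lost its call in 11 of 15 alternatives: with no filter, quantile normalization, the replicate block or those states alone, and without any single library other than summer active 1.

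For each gene, the tested genes with the most similar levels over the 8 libraries were listed as a description, by Pearson r of log2 values. They were S1PR1 (0.974) and BTG2 (0.972) for IRF8, PRKX (0.988) and ASH1L (0.986) for TCF4, and TMEM140 (0.961) and CRYL1 (0.954) for ID2. SPI1 was closest to CTSA (0.980) and PLEKHO2 (0.964), and BATF3 to S100A4 (0.929) and TRAPPC2L (0.920). ZBTB46 was closest to DYSF (0.968) and CD86 (0.963), and XCR1 to ZC3H12A (0.960) and GPR171 (0.955). FLT3 was closest to HSH2D (0.925) and VPS26C (0.924), and CLEC9A to RAD52 (0.958) and CTBP2 (0.903). The libraries of a state share their condition, and each pair was picked as the best among all genes with a mean of at least 5.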

How the data were processed

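RNA was read from 8 whole spleen libraries. Per the submitters' processing notes, kallisto (0.46.2) and sleuth (0.30.0) were used; the transcriptome and how gene values were summed and rescaled are not stated there. The deposited values are a rescaled TPM signal whose columns do not total 1000000. All 19652 gene IDs and symbols matched assembly mRhiFer1_v1.p, used for names only.

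Testing used limma (3.58.1, R 4.3.3) on log2(value + 1) for genes with a mean of 1 or more, with a trend, 1 fit over the 8 libraries (4 residual and 3.29 prior degrees of freedom) and Benjamini-Hochberg adjustment over 13542 genes. The fit was also run on simulated data with changes planted in torpor. The share recovered is not reported here, so the run gives no measure of changes the fit may have missed. The 9 genes, lists and comparisons were chosen with earlier results of these data known. In each list and comparison the text could name up to 6 genes past the threshold, or else the 2 with the smallest p. Likeness was taken among genes with a mean of at least 5. Settings tried besides were a pseudocount of 0.1, another filter (none, or a mean of 5), columns set to 1000000, quantile normalization, the replicate number as a block, a fit of the compared states alone, and dropping each library, which gives the remaining one of that state the spread of the others.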

Additional observations from a re-analysis of the deposited data

How the results depend on the processing

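Over the 5 comparisons, 656 differences of the 9 genes were recomputed under the alternatives: 620 kept their sign and their side of the threshold, 10 gained the call, all 10 with columns set to 1000000, and 26 changed sign. That rescaling passed 2 genes in arousal against torpor, 2 in winter active against summer active, 6 in the November states against summer and 3 in the test of any difference, where the main count was 0 in each. Signs that changed there were those of TCF4 (0.28) and FLT3 (0.077) in torpor against summer active, FLT3 (0.096) and BATF3 (0.059) in arousal against torpor, FLT3 (0.49) in winter active against summer active, and IRF8 (0.56), XCR1 (0.28) and FLT3 (0.25) in the November comparison. FLT3LG turned to 0.17, 0.15 and 0.068 in the comparisons of torpor, winter active and November with summer. Because rescaling moves every gene of a library together, these turns follow from its construction. Quantile normalization changed the sign of TCF4 in torpor against summer active (0.023), ZBTB46 (-0.17), CLEC9A (-0.024) and the listed gene CD74 (0.23) in arousal against torpor, and IRF8 in November (0.090).

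Leaving out a library changed signs in the following ranges. In torpor against summer active, CLEC9A ran from -0.053 (without summer active 1) to 0.49, ZBTB46 from -0.19 (without summer active 2) to 0.66 and TCF4 from -0.29 to 0.11 (without torpor 1). In arousal against torpor, BATF3 ran from -0.66 to 0.024 (without torpor 1) and SPI1 from -1.04 to 0.079 (without arousal 2). In winter active against torpor, FLT3 ran from -0.023 (without winter active 1) to 0.52, BATF3 from -0.46 to 0.64, turning without torpor 2 or winter active 1, and the listed gene CLEC7A from -1.28 to 0.20 (without torpor 1). In winter active against summer active, FLT3 ran from -0.30 to 0.24, turning without summer active 1 or winter active 2, and SPI1 from -0.11 (without summer active 2) to 0.95. IRF8 in November ran from -0.11 to 0.077, turning without torpor 2, arousal 2 or winter active 2. The cause of these turns was not tested.

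Replicate numbers share only a number: their deviations correlated between states at -0.191 to 0.322, over 0.1 in 4 of 6 pairs of states. With a replicate block 0 of the 9 genes passed in each comparison, and MARCKSL1 (adjusted p = 0.0512) in November and GCSAM (0.0731) in winter active against summer active lost the call. Among all genes, torpor against summer active gave 76 (10 higher and 66 lower), 48 with no filter, 11 with those states alone, 20 higher and 36 lower with columns set to 1000000, and 9 to 314 without a library. Winter active against summer active gave 140 (19 higher and 121 lower), 57 with no filter, 32 with those states alone, 661 higher and 117 lower after rescaling, and 15 to 382 without a library. November against summer gave 395 (89 higher and 306 lower), 200 with no filter, 4469 higher and 283 lower after rescaling, and 45 to 634 without a library. Any difference gave 106, 34 with no filter, 46 with the block, 2953 after rescaling and 16 to 190 without a library. Arousal against torpor gave 0, 6 with no filter, 441 after rescaling and up to 2 without a library, and winter active against torpor gave 0, or 6 with no filter. With 2 libraries a state and no read counts, the low values of CLEC9A and XCR1 have an unknown counting error.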
